A study of Mus musculus with 12 samples.

Results

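The early B-cell factor genes Ebf1, Ebf2 and Ebf3 were followed across sorted fat fibroblasts. Their probe sets were taken by platform gene symbol, and all 9 of them, 3 for each gene, were kept. They stand for 3 of 12393 genes and for 9 of 22626 probe sets on the array. No probe set carried the symbol of the remaining family member, Ebf4. RNA was measured on 12 Affymetrix arrays, 3 in each of 4 groups. The groups were GFP+ and GFP- fibroblasts from inguinal fat, a subcutaneous depot, and GFP+ and GFP- fibroblasts from epididymal fat, a visceral depot. Every group came from male Zfp423-GFP transgenic mice of 6 to 8 weeks on an FVB and C57BL/6 background, so the GFP- cells carried the transgene as well. GFP served as the sorting mark for cells of the stromal vascular cultures, which were then returned to culture in DMEM/F12 with fetal bovine serum and collected while still proliferating. The labels give neither pooling nor separate cultures or animals for the arrays of a group. The p-values below therefore speak to the spread among these 12 arrays alone, and that spread may be technical.

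Early B-cell factors are helix-loop-helix transcription factors with a zinc-coordinating DNA-binding domain, and they bind a palindromic site as homodimers or heterodimers. In mice Ebf1 is required for B cell development and acts in adipogenesis, Ebf2 marks brown and beige fat precursors, and Ebf3 is expressed in stromal cells of the bone marrow. Zfp423, the gene reported by GFP here, encodes a zinc finger protein that binds Ebf1 and can inhibit it.

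In the RefSeq annotation of GRCm38.p6, Ebf1 lies at chr11:44618100-45008096, Ebf2 at chr14:67233292-67430952 and Ebf3 at chr7:137193671-137322805. The 250 bases before annotated start sites of Ebf1 and Ebf3 are shown to give the base composition at these starts. They are RefSeq sequences of GRCm38.p6, with each CG pair in capitals. The Ebf1 windows are chr11:44617850-44618099 and chr11:44619978-44620227, both on the + strand, and the Ebf3 window is chr7:137314446-137314695 on the - strand. The second Ebf1 window and the Ebf3 window lie inside the annotated genes, not before their outermost starts. No window was available for Ebf2.
Ebf1, first start site: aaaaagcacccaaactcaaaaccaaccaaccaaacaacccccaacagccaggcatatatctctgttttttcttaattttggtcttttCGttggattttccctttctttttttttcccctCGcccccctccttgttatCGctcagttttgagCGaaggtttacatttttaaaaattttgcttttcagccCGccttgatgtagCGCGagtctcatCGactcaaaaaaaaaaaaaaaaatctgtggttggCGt
Ebf1, second start site: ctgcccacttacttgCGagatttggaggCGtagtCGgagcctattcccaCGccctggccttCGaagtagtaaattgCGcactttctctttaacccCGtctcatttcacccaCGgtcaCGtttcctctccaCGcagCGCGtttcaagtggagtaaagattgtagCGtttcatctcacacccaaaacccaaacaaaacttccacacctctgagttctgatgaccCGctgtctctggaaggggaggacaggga
Ebf3: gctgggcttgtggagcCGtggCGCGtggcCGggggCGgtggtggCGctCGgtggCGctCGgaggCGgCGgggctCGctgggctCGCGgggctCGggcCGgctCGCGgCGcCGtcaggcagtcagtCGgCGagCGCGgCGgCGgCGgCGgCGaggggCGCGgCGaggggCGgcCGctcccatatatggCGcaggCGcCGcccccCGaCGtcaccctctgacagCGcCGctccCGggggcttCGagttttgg
G and C made up 40% of the first Ebf1 window, 52% of the second and 80% of the Ebf3 window. These windows held 9, 14 and 43 CG pairs in that order. Across the same 250 bases of 32851 windows in the table the median was 52.4% G and C with 6 CG pairs, and 98.8% of them had a lower G and C content than the Ebf3 window. No value of these arrays links the sequences to the levels below.

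Levels are the deposited probe set intensities, on a linear scale. As a scale for very low values, 33 probe sets of olfactory receptor genes, which fibroblasts are not known to use, had a 90th percentile of 43.2 in inguinal GFP+, 44.9 in inguinal GFP-, 66.3 in epididymal GFP+ and 64.8 in epididymal GFP- cells. Array medians lay between 347.3 and 371.2. The fibroblast genes Pdgfra and Col1a1, picked for this check after their values were seen, had mean intensities of at least 4627 and 22493 in every group.

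Ebf1 was bright in both inguinal fractions and in epididymal GFP+ cells, and dim in epididymal GFP- cells. On its brightest probe set, 1448293_at, the intensities were 3517.6, 3577.6 and 3637.3 in inguinal GFP+ and 3543.8, 3374.2 and 3512.6 in inguinal GFP- cells. They were 2762.4, 3098.7 and 2895.3 in epididymal GFP+ and 118.9, 130.2 and 126.3 in epididymal GFP- cells. The inguinal fractions overlapped each other, all epididymal GFP+ arrays lay below them, and epididymal GFP- arrays lay below everything else but above the olfactory receptor scale. Group means were 3577 ± 59.9, 3477 ± 90.3, 2919 ± 169 and 125 ± 5.75 in that order (SD, n = 3 each).

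The other Ebf1 probe sets showed the same order of groups at lower intensities. Probe set 1416301_a_at ranged from 2867.4 to 2993.5 in inguinal GFP+, 2432.3 to 2767.9 in inguinal GFP-, 1860.9 to 1974.6 in epididymal GFP+ and 46.6 to 79.4 in epididymal GFP- cells. Probe set 1416302_at ranged from 1161 to 1253.5, 1088.6 to 1187.5, 799.6 to 890.2 and 23.2 to 25.9 in the same order. In epididymal GFP- cells 1416302_at therefore lay within the olfactory receptor range.

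Ebf2 was also dim in epididymal GFP- cells, but its highest group was epididymal GFP+. On probe set 1418494_at the intensities were 750, 718.6 and 775 in inguinal GFP+ and 835.1, 807.8 and 812 in inguinal GFP- cells. They were 1151, 1203.4 and 1167.7 in epididymal GFP+ and 15.2, 15.1 and 25.1 in epididymal GFP- cells. No pair of groups overlapped, and the epididymal GFP- arrays lay within the olfactory receptor range. Group means were 748 ± 28.3, 818 ± 14.7, 1174 ± 26.8 and 18.4 ± 5.76 (SD, n = 3 each).

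Probe set 1449102_at of Ebf2 ranged from 469.5 to 485.4 in inguinal GFP+, 478 to 495.7 in inguinal GFP-, 670 to 775.4 in epididymal GFP+ and 1.0 to 9.6 in epididymal GFP- cells. The dimmest Ebf2 probe set, 1449101_at, ranged from 139.1 to 174.2, 154.2 to 163.8, 166 to 203.3 and 6.3 to 10.7 in that order. On both, the inguinal fractions overlapped and epididymal GFP- cells stood far below the other groups.

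Ebf3 followed the depot. On probe set 1452751_at the intensities were 673.2, 538.3 and 548 in inguinal GFP+ and 312.9, 357 and 329.3 in inguinal GFP- cells. They were 31.7, 49.4 and 47.7 in epididymal GFP+ and 19.5, 18.1 and 24.3 in epididymal GFP- cells. The groups did not overlap, and both epididymal groups lay within the olfactory receptor range. Group means were 587 ± 75.2, 333 ± 22.3, 43.0 ± 9.81 and 20.7 ± 3.26 (SD, n = 3 each).

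Probe set 1460666_a_at of Ebf3 ranged from 150.1 to 195.4 in inguinal GFP+, 98.6 to 106.2 in inguinal GFP-, 25.4 to 56.8 in epididymal GFP+ and 19.9 to 31.2 in epididymal GFP- cells. Probe set 1428349_s_at ranged from 243.8 to 255.1, 157.9 to 165.5, 8.4 to 14.8 and 1.9 to 9.2 in that order. The epididymal fractions overlapped on both probe sets, and the inguinal fractions did not.

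**Figure D1:**
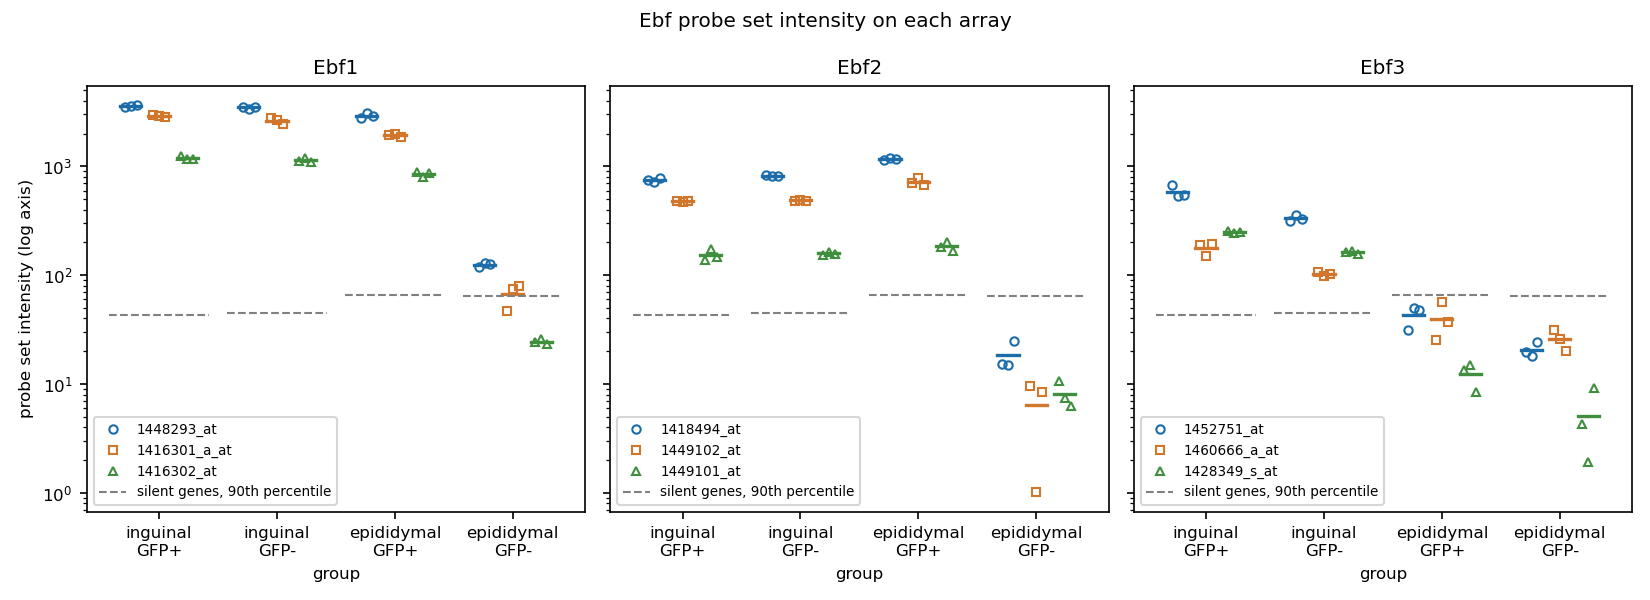
Intensity of each Ebf probe set on every array (log axis) by group, with points for arrays, solid bars for group means and dashed lines for the 90th percentile of olfactory receptor probe sets. Ebf1 and Ebf2 are low in epididymal GFP- cells alone, whereas Ebf3 is low in both epididymal groups.

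The first comparison asked what distinguishes epididymal GFP+ from GFP- cells. Ebf1 and Ebf2 rose together, and these were large changes. By limma on log2(intensity + 16), Ebf1 was higher in GFP+ cells by 4.38 ± 0.05 on 1448293_at (SE, adjusted p = 1.72e-17), 4.57 ± 0.11 on 1416301_a_at (adjusted p = 3.80e-14) and 4.43 ± 0.07 on 1416302_at (adjusted p = 3.90e-16). Ebf2 was higher by 5.12 ± 0.10 on 1418494_at (limma adjusted p = 2.19e-15), 5.06 ± 0.13 on 1449102_at (adjusted p = 8.65e-14) and 3.05 ± 0.15 on 1449101_at (adjusted p = 9.74e-11). Ebf1 1416302_at and the 3 Ebf2 probe sets lay within the olfactory receptor range in GFP- cells, so the size of their log2 changes rests on the pseudocount. The change of 1418494_at ran from 3.91 to 5.96 with pseudocounts of 64 and 1. On Ebf1 1416301_a_at, GFP- replicate 1 (46.65) lay within that range too, and the change ran from 3.94 to 4.86 over the alternatives.

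The linear ratio of means was 23.3 for Ebf1 on 1448293_at. Where GFP- cells lay within the olfactory receptor range the ratio is given only against that range's 90th percentile: Ebf1 was at least 13.2-fold higher on 1416302_at, and Ebf2 at least 18.1-fold higher on 1418494_at, 11.1-fold on 1449102_at and 2.84-fold on 1449101_at. Ebf3 rose on 1452751_at, by 0.67 ± 0.15 (limma adjusted p = 0.00202), with both means inside that range and a change of 0.33 or 1.00 with a pseudocount of 64 or 1. The other Ebf3 probe sets differed by 0.39 ± 0.20 (limma adjusted p = 0.153) and 0.43 ± 0.17 (adjusted p = 0.0657). In all, 7 of 9 Ebf probe sets were called higher and 0 lower, where 38.1% of all probe sets were called, 19.1% higher and 19% lower. The arrays of the 2 groups did not overlap on 7 of 9 Ebf probe sets, against 46.8% of all probe sets. In bulk RNA of this kind, fewer cells of a type and less RNA per cell cannot be told apart.

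Markers of mesothelial cells, the lining cells of visceral organs, moved with this contrast. Of 10 measured mesothelial markers, 9 were lower in epididymal GFP+ than GFP- cells and 0 were higher. With 1 probe set a gene, 20.1% of all genes were called lower and 21.2% higher. The summed intensity of the mesothelial markers was 7439 to 7709 in epididymal GFP+ and 40365 to 43108 in epididymal GFP- cells. It was 1965 to 2316 in inguinal GFP+ and 1650 to 1801 in inguinal GFP- cells. None of these markers was at 0 in a group mean. The part of these cells in the Ebf1 and Ebf2 difference was not tested.

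In the same comparison of inguinal cells, Ebf3 rose. Ebf3 was higher in GFP+ cells by 0.78 ± 0.15 on 1452751_at (SE, limma adjusted p = 0.00288), 0.71 ± 0.20 on 1460666_a_at (adjusted p = 0.0360) and 0.57 ± 0.17 on 1428349_s_at (adjusted p = 0.0472). The linear ratio of means was 1.76, 1.74 and 1.53. The last 2 of these probe sets were close to the threshold. Without inguinal GFP+ replicate 1 or 3, or any inguinal GFP- replicate, 1460666_a_at missed it at changes of 0.64 to 0.73 (limma adjusted p = 0.0865 to 0.126). Without any 1 of the 6 inguinal arrays, 1428349_s_at missed it at changes of 0.55 to 0.58 (adjusted p = 0.0876 to 0.140), and likewise without epididymal GFP+ replicate 2 or epididymal GFP- replicate 1 (adjusted p = 0.0501).

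Ebf1 and Ebf2 did not pass the test in inguinal cells. The difference was 0.04 for Ebf1 on 1448293_at, with a 95% interval of -0.06 to 0.14 (limma adjusted p = 0.707), and -0.13 for Ebf2 on 1418494_at, with an interval of -0.34 to 0.08 (adjusted p = 0.521). Over the other probe sets the differences ran from -0.05 to 0.15. The call was therefore made for 3 of 9 Ebf probe sets, all higher, where 10.5% of all probe sets were called, 4.24% higher and 6.23% lower. The groups did not overlap on 5 of 9, against 26.8% of all probe sets. In this contrast 12 of 13 macrophage markers were lower in GFP+ cells. With 1 probe set a gene, 7% of all genes were called lower and 5.05% higher. The summed intensity of the macrophage markers was 2110 to 2350 in inguinal GFP+ and 11309 to 13301 in inguinal GFP- cells. None of these markers was at 0 in a group mean, and their part in the Ebf3 difference was not tested.

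The GFP contrast of Ebf1 and Ebf2 differed between the depots when that difference was tested. For Ebf1 the inguinal minus the epididymal contrast was -4.34 ± 0.07 on 1448293_at (SE, limma adjusted p = 2.25e-15), and for Ebf2 it was -5.25 ± 0.14 on 1418494_at (adjusted p = 2.40e-13). All 3 probe sets of each gene were called lower, 6 of 9 in all, where 30.5% of all probe sets were called, 14.3% higher and 16.2% lower. For Ebf3 on 1452751_at the difference was 0.11 with a 95% interval of -0.35 to 0.57 (limma adjusted p = 0.774), which does not show that the contrasts were alike. The Ebf2 sizes again rest on epididymal GFP- values within the olfactory receptor range.

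**Figure D2:**
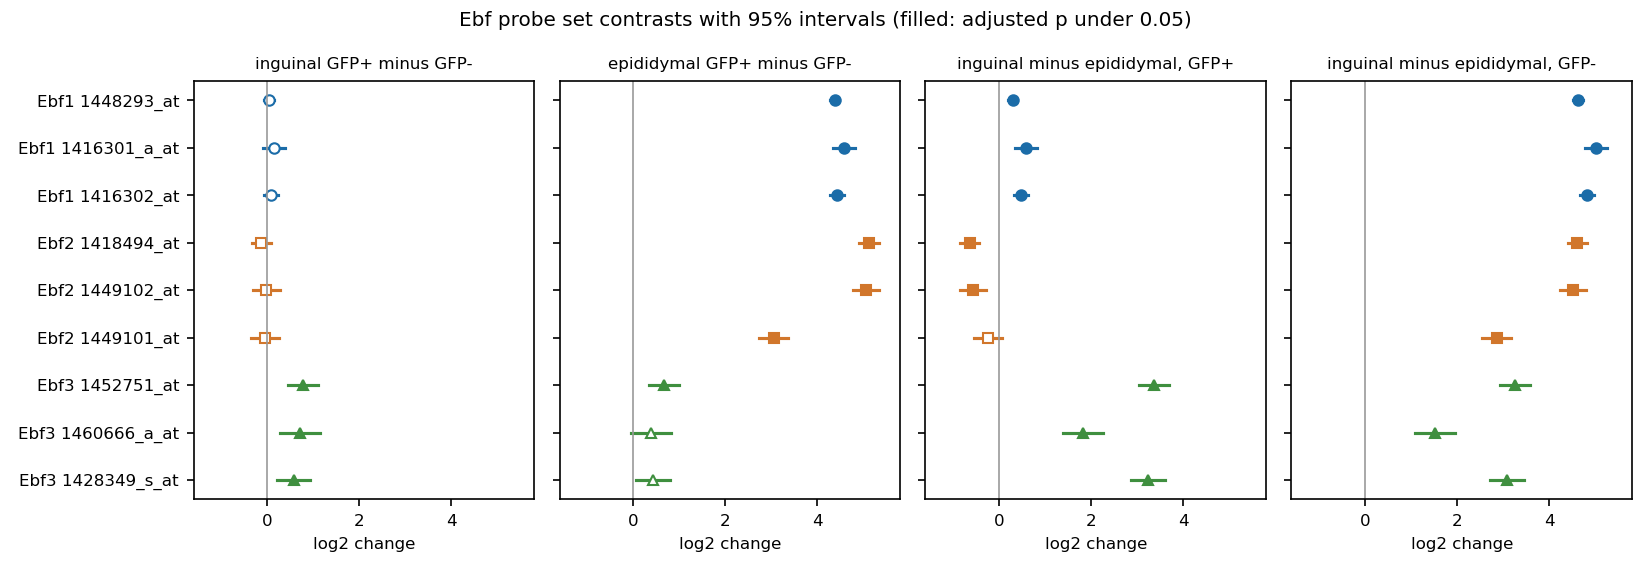
Log2 change of each Ebf probe set in 4 contrasts, with 95% intervals from limma and filled marks where the adjusted p was under 0.05. Ebf1 and Ebf2 lie above 3 in the epididymal GFP contrast and near 0 in the inguinal one, and Ebf3 differs between depots in both fractions.

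**Figure D3:**
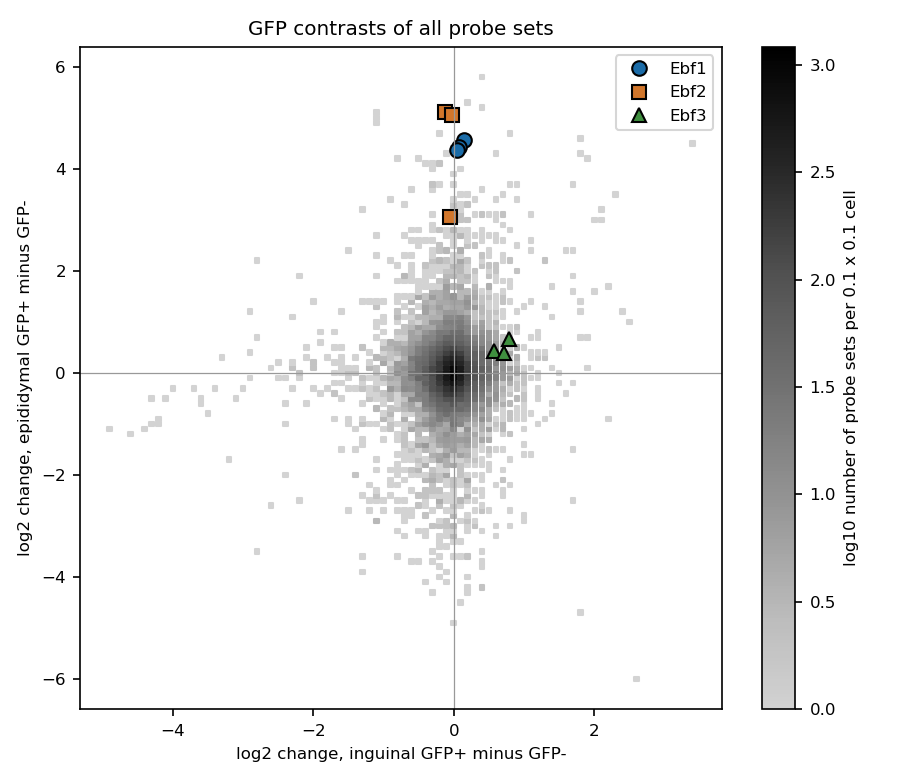
Log2 change of every probe set in the inguinal (x axis) and epididymal (y axis) GFP contrasts, in grey by their number in each square, with Ebf probe sets in colour. The Ebf1 and Ebf2 marks lie near 0 on the x axis and between 3.05 and 5.12 on the y axis, and the Ebf3 marks lie between 0.57 and 0.78 on the x axis.

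The depots were next compared within each fraction. In GFP- cells all 9 Ebf probe sets were higher in inguinal cells, where 49.7% of all probe sets were called, 25.6% higher and 24.1% lower. None of the 9 overlapped between the groups, as held for 57.8% of all probe sets. Ebf1 was higher by 4.63 on 1448293_at and 5.02 on 1416301_a_at. The other probe sets lay within the olfactory receptor range in epididymal GFP- cells and are given as bounds against its 90th percentile. On 1416301_a_at, epididymal GFP- replicate 1 (46.65) lay within that range too, and the change ran from 4.37 to 5.31 over the alternatives. Ebf1 was at least 17.5-fold higher on 1416302_at. Ebf2 was at least 12.6-fold higher on 1418494_at, 7.50-fold on 1449102_at and 2.44-fold on 1449101_at. Ebf3 was at least 5.14-fold higher on 1452751_at, 1.58-fold on 1460666_a_at and 2.50-fold on 1428349_s_at.

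In GFP+ cells the genes separated. Ebf3 was higher in inguinal cells by 3.36 ± 0.15 on 1452751_at (SE, limma adjusted p = 9.38e-11), at least 8.85-fold against the olfactory receptor scale, and at least 2.69-fold on 1460666_a_at and 3.75-fold on 1428349_s_at. Ebf1 was higher in inguinal cells by 0.29 ± 0.05 on 1448293_at (limma adjusted p = 0.000122), and by 0.59 and 0.48 on the others. Ebf2 went the other way, by -0.64 ± 0.10 on 1418494_at (limma adjusted p = 6.46e-05) and -0.56 on 1449102_at (adjusted p = 0.00255, or 0.293 with a pseudocount of 1). The third Ebf2 probe set, 1449101_at, differed by -0.24 and did not pass (limma adjusted p = 0.200). Thus 6 of 9 probe sets were called higher and 2 lower, where 47.1% of all probe sets were called, 22.4% higher and 24.7% lower. The groups did not overlap on 8 of 9, against 53.2% of all probe sets. These comparisons share groups with the GFP contrasts and are not independent of them.

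Markers of other cell types moved with the depot contrasts as well. In GFP- cells 1 of 10 mesothelial markers was higher and 9 lower in inguinal than in epididymal cells (median -5.70), and 10 of 13 macrophage markers were higher and 1 lower (median 2.47). In GFP+ cells 2 mesothelial markers were higher and 8 lower (median -2.43), and 0 macrophage markers were higher and 6 lower (median -0.38). With 1 probe set a gene, 53.4% of all genes were called in GFP- cells, 27.3% higher and 26.1% lower, and 50.4% in GFP+ cells, 23.4% higher and 27% lower. The summed macrophage intensity in epididymal fat was 2841 to 3024 in GFP+ and 3424 to 3859 in GFP- cells. The part of these markers' cells in the Ebf differences between depots was not tested.

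Probe sets of one gene followed each other over the arrays. Over 12 arrays, which share 4 groups, Pearson's r was 0.997 to 0.999 between Ebf1 probe sets, 0.993 to 0.998 between Ebf2 probe sets and 0.955 to 0.993 between Ebf3 probe sets. Between the brightest probe sets, r was 0.984 for Ebf1 with Ebf2, 0.717 for Ebf1 with Ebf3 and 0.588 for Ebf2 with Ebf3. These values describe the arrays and carry no test.

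Probe sets of a gene were also set against each other within an array. All 3 Ebf2 probe sets lay within the olfactory receptor range in epididymal GFP- cells and have no order there. Within an array, 1418494_at exceeded 1449101_at by 2.58 ± 0.11 on the log2 scale in epididymal GFP+ and by 0.51 ± 0.34 in epididymal GFP- cells (SD, n = 3 each). The epididymal GFP change differed by 2.07 between them, a value that rests on those GFP- intensities. In an exact two-sided permutation test p was 0.1, the smallest that 3 against 3 arrays can give, and 0.45 after adjustment over 18 comparisons. For Ebf1, whose 1416302_at lay within that range too, the epididymal GFP change differed between probe sets by -0.20 to 0.15.

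**Figure D4:**
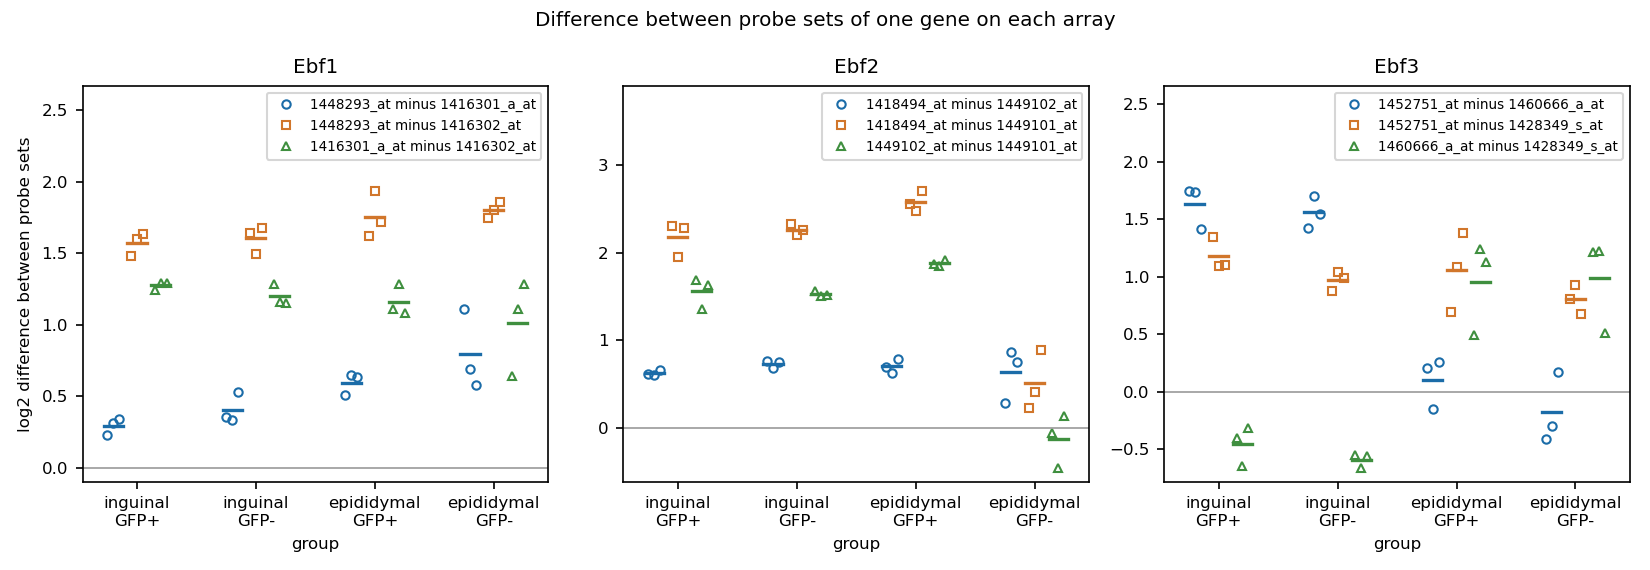
Log2 difference between each pair of probe sets of one gene on every array, by group, with bars for group means. The Ebf2 differences that involve 1449101_at are 2.58 and 1.88 in epididymal GFP+ and 0.51 and -0.13 in epididymal GFP- cells.

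The genes whose levels were most like each Ebf gene were taken by Pearson's r over the 12 arrays among 1555 genes. For Ebf1 they were Dbp (r = 0.999), a clock output transcription factor, the chemokine gene Cxcl14 (r = 0.999), and the matrix genes Mfap5 (r = 0.998) and Postn (r = 0.998), followed by Niban1, Tubb3, Wipf1 and Osmr. Cxcl14 intensity averaged 8661 and 9150 in the GFP+ and GFP- cells of inguinal fat, and 7535 and 361 in those of epididymal fat. The most opposite were Mgmt (r = -0.996), a DNA repair gene, Mras, Psrc1 and Clba1.

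For Ebf2 the most like were Epb41l3 (r = 0.997), Eng, a TGF-beta coreceptor (r = 0.997), the collagen hydroxylase gene P4ha2 (r = 0.996) and the PDGF receptor gene Pdgfrb (r = 0.996), then Robo1, Gpc4, Grk5 and Cotl1. Robo1, a guidance receptor, averaged 530, 529, 730 and 35.1 in the same order of groups. The most opposite were Vnn1 (r = -0.993), Etl4, Dab2 and Mgmt. For Ebf3 they were the chemokine gene Ccl7 (r = 0.992), Igfbp5, an IGF binding protein gene (r = 0.988), Gzmd (r = 0.987) and Tmem119 (r = 0.986), then Hsd17b7, Pbp2, Apobec1 and Tmem140. Igfbp5 averaged 4140, 2747, 80.8 and 64.4. The most opposite were Mmd (r = -0.993), Cdc42ep3, Pitpnm2 and Il1rap. Ebf2 held place 69 of 1554 in likeness to Ebf1, and Ebf1 held place 45 in likeness to Ebf2. By Spearman's rho, 0 of the 8 genes were shared with these lists for each Ebf gene.

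**Figure D5:**
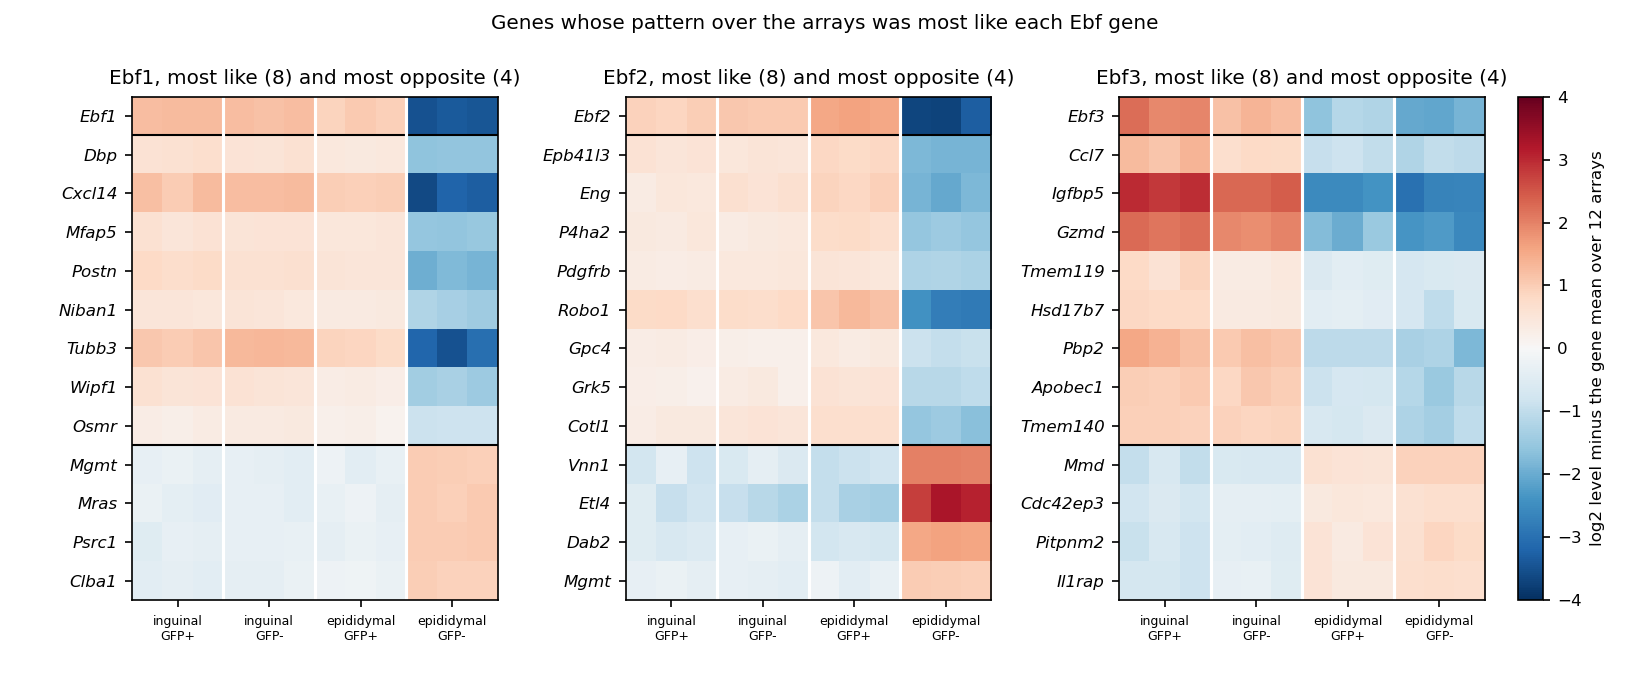
Log2 level minus the gene's mean over 12 arrays, one column an array, for each Ebf gene, the 8 genes most like it and the 4 most opposite. By their selection, the most-like genes are low where their Ebf gene is low (epididymal GFP- cells for Ebf1 and Ebf2, both epididymal groups for Ebf3), and the most opposite genes are high there.

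Genes that work with or around the Ebf factors were counted from lists, 1 probe set a gene. On that basis 12.1% of genes were called in the inguinal GFP contrast, 5.05% higher and 7% lower, and 41.4% in the epididymal one, 21.2% higher and 20.1% lower. The median log2 change of all genes was -0.01 in inguinal and 0.01 in epididymal cells.

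Of 9 measured Ebf partners and cofactors, 1 rose and 2 fell in inguinal GFP+ cells, and 3 rose and 2 fell in epididymal GFP+ cells. The list's median was -0.02 in inguinal and -0.07 in epididymal cells. Zfp423 was the 1 that rose in inguinal cells and 1 of the 3 that rose in epididymal cells. GFP, the sorting mark, reports this gene, so its rise is not independent of the sort. Zfp423 intensity averaged 124 and 57.4 in the GFP+ and GFP- cells of inguinal fat, and 242 and 29.4 in those of epididymal fat. It rose by 0.94 ± 0.18 in inguinal (SE, limma adjusted p = 0.00246) and 2.50 ± 0.18 in epididymal cells (adjusted p = 1.20e-08). The epididymal GFP- mean of Zfp423 lay within the olfactory receptor range, so the size of the epididymal change rests on the pseudocount. The Zfp423 homologue Zfp521, which binds Ebf1 and restrains adipogenesis, averaged 1208, 1150, 1375 and 414. Zfp521 was thus low in the same group as Ebf1 and Ebf2, with a rise of 1.70 ± 0.08 in epididymal cells (limma adjusted p = 6.61e-11) and a difference of 0.07 in inguinal cells (adjusted p = 0.710).

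Runx1, a transcription factor that acts with Ebf1 in B cells, rose by 0.96 ± 0.06 in epididymal cells (limma adjusted p = 3.18e-09). In inguinal cells it fell by 0.20 (limma adjusted p = 0.0475), a call that 9 of the 12 fits without 1 array did not make. Foxo1, which acts with Ebf1 in early B cells, fell by 0.30 in inguinal (limma adjusted p = 0.00496) and by 0.66 in epididymal cells (adjusted p = 3.13e-07).

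A search of 300-base windows around start sites used the letters TCCCNNGGGA, which read the same on both strands. They occurred in 287 of 27025 genes, 1.06%. The windows of Ebf1, Ebf3 and the most-like genes that had a window did not hold these letters, and neither did those of 12 adipogenic regulators, 10 fat cell genes and 12 brown fat genes. They were in 1 of 9 partners and 1 of 12 B cell genes. Both sites are shown with the match in capitals, at chr3:52268235-52268264 on the + strand for Foxo1 and chr7:30879058-30879087 on the - strand for Cd22, in GRCm38.p6.
Foxo1: tactgccgccTCCCGAGGGAaggcagcgcc
Cd22: tcctgcaagaTCCCTGGGGActcacacaga
The Foxo1 match starts 92 bases and the Cd22 match 49 bases before the start site. A match describes letters and is not evidence of binding.

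Of 15 adipogenic regulators, 3 rose and 4 fell in inguinal GFP+ cells (median -0.10), and 7 rose and 6 fell in epididymal GFP+ cells (median 0.08). The fall of Klf15 in inguinal cells, by 0.44 (limma adjusted p = 0.0444), was lost in 7 of the 12 fits without 1 array. Zfp467, named for this alone, rose in inguinal and fell in epididymal cells, and each call was lost in 4 of them. Pparg, the main regulator of fat cell differentiation, averaged 838, 335, 214 and 35.6. It rose in inguinal cells by 1.28 ± 0.14 (SE, limma adjusted p = 1.97e-05) and in epididymal cells by 2.17 ± 0.14 (adjusted p = 5.28e-09). Its epididymal GFP- mean lay within the olfactory receptor range, so the size of the epididymal change rests on the pseudocount. Egr2, an early adipogenic factor, fell by 0.73 in inguinal (limma adjusted p = 4.22e-05) and rose by 1.92 in epididymal cells (adjusted p = 6.67e-11). Cebpd rose by 0.90 and Klf15 by 2.07 in epididymal cells. The Klf15 size rests on the pseudocount as well, with an epididymal GFP- mean of 21.5 within the olfactory receptor range.

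Of 11 measured fat cell genes, 2 rose and 1 fell in inguinal cells (median 0.14), and 4 rose and 1 fell in epididymal cells (median -0.01). Of these 11 genes, 6 were weakly detected, and both medians are values of weakly detected genes. Uncalled genes of this kind are not shown to be unchanged. The fall in inguinal cells was Cd36, weakly detected, and was lost without inguinal GFP+ replicate 1 or 2 or inguinal GFP- replicate 2. Fabp4, a fatty acid carrier, rose by 1.81 ± 0.09 in inguinal (SE, limma adjusted p = 2.68e-09) and by 4.30 ± 0.09 in epididymal cells (adjusted p = 5.43e-15). Of 13 brown fat genes, 7 of them weakly detected, 1 rose in inguinal and 2 in epididymal cells and 0 fell (medians -0.13 and -0.08). Cox7a1, a respiratory chain subunit gene, rose by 0.53 in inguinal cells (limma adjusted p = 0.0123), a call lost without inguinal GFP+ replicate 1 or inguinal GFP- replicate 1 or 3, and by 0.50 in epididymal cells (adjusted p = 0.00445).

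B cell genes, many of them Ebf1 targets in that lineage, were near the low end of the scale. Of 14 measured, 12 were weakly detected, and 0 rose and 1 fell in each GFP contrast (medians -0.06 in inguinal and -0.09 in epididymal cells). The calls were Blnk in inguinal and Rag2 in epididymal cells, both weakly detected. The first was lost without inguinal GFP- replicate 2, and the second without epididymal GFP+ replicate 3 or epididymal GFP- replicate 1 or 2. The summed B cell intensity was 362 to 562 over all arrays. Of 4 measured olfactory neuron genes, 0 were called in inguinal cells, and Adcy3 rose by 0.38 and Cnga2 fell by 1.27 in epididymal cells (medians 0.08 and -0.15). Cnga2 was weakly detected, with means of 19.3 in epididymal GFP+ and 74.75 in epididymal GFP- cells, the former within the olfactory receptor range.

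Of 8 genes of the marrow stromal niche, 1 rose in inguinal cells, and 2 rose and 4 fell in epididymal cells (medians 0.02 and -0.29). Foxc1, a niche transcription factor, rose by 0.53 in inguinal and 1.21 in epididymal cells, and Bmp4 fell by 3.05 in epididymal cells. Other cell type lists gave these counts. Mural markers rose in 1 and fell in 6 of 10 in inguinal cells, and rose in 5 and fell in 3 in epididymal cells (medians -0.32 and 0.22). Endothelial markers rose in 2 of 8 in inguinal cells, and 2 rose and 1 fell in epididymal cells (medians 0.12 and 0.20). Their summed intensity went the other way in epididymal fat, at 990 to 1062 in GFP+ and 4609 to 4872 in GFP- cells. In inguinal fat it was 509 to 676 in GFP+ and 427 to 519 in GFP- cells. Of these 8 markers, 4 were weakly detected. In epididymal GFP- cells 6 of the 8 had means of 60 or less, so few markers made up the sum there. The median marker intensity was 40.2 in those cells and 69.5 in epididymal GFP+ cells, opposite to the sums. The part of endothelial cells in the Ebf differences was not tested. Fibroblast markers rose in 3 and fell in 1 of 8 in inguinal cells, and rose in 4 and fell in 2 in epididymal cells (medians 0.05 and -0.02). Macrophage markers rose in 1 and fell in 8 of 13 in epididymal cells (median -0.88; inguinal median -3.56), and mesothelial markers rose in 2 and fell in 1 of 10 in inguinal cells (median -0.07; epididymal median -3.13).

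Some of these small counts changed when 1 array was left out. Without inguinal GFP+ replicate 2, partners rose in 2 and niche genes in 3 in inguinal cells. Fibroblast markers rose in 1 without inguinal GFP+ replicate 1 or 3 or inguinal GFP- replicate 1, and mesothelial markers fell in 2 without inguinal GFP+ replicate 1. Lum, a fibroblast marker named for this alone, lost its inguinal call in 10 of the 12 fits without 1 array. C1qc, a macrophage marker also named for this alone, lost its epididymal call in 6 of them. Endothelial markers rose in 1 in inguinal cells on leaving out any 1 of the 6 inguinal arrays, epididymal GFP+ replicate 1 or any epididymal GFP- replicate. Mural markers rose in 3 in epididymal cells without epididymal GFP+ replicate 1 or 2 or epididymal GFP- replicate 1 or 3.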

How the data were processed

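RNA of 4 groups of 3 samples was read on Affymetrix arrays. The authors deposited linear probe set intensities; the signal algorithm, scaling and software are not given in the sources used here, so their effect on low values is unknown. Values were used as log2(intensity + 16) with no further normalization, and fold changes of dim probe sets are understated. Sample labels gave the groups. A model of 4 group means was run on all 22626 probe sets in limma 3.58.1 (R 4.3.3, lmFit, eBayes with a trend), with Benjamini-Hochberg adjustment at 0.05 over all of them; SE and intervals come from this fit. The number of arrays limits the precision. The fit was tested on simulated data. Of the probe sets, 20380 had 1 gene symbol, 691 several and 1555 none. Symbols were updated with RefSeq (GRCm38.p6); 24 had no match and kept the platform's. For lists, the probe set with the highest mean stood for its gene (12393 genes). Weakly detected means the lowest 30% of means, under an intensity of 60.6; 8 of 9 Ebf probe sets were above it.

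The members, the 12 lists (123 of 135 genes measured) and the tests were chosen with earlier results of these data known. Named genes were the Ebf probe sets, the 8 most like and 4 most opposite genes, and genes drawn from the lists. Most like and opposite genes had 1 symbol, an SD of at least 0.5 and a highest group mean above weak detection. List genes came from up to 3 called with the smallest adjusted p per list and GFP contrast, or the brightest where none was called. Some genes that this rule picks are not named above, among them Klf5, Lpl, G0s2, Dgat2, Pdk4 and Csf1. A few others are named for a reason given there. Alternatives were a pseudocount of 1 or 64, median centring, quantile normalization, the replicate block, no weak probe sets, no trend, 1 probe set a gene, only the groups compared, and leaving out each array.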

Additional observations from a re-analysis of the deposited data

Results flagged for a closer look

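The GFP contrast differed between depots by limma's interaction test on the 3 probe sets of Ebf1 and of Ebf2, as inguinal minus epididymal contrast on the log2 scale. For Ebf1 it was -4.34 on 1448293_at, -4.42 on 1416301_a_at and -4.35 on 1416302_at (adjusted p = 2.25e-15, 8.22e-12 and 8.59e-14). For Ebf2 it was -5.25 on 1418494_at, -5.07 on 1449102_at and -3.10 on 1449101_at (adjusted p = 2.40e-13, 1.28e-11 and 9.90e-09). The Ebf2 values and that of 1416302_at rest on epididymal GFP- intensities within the range of olfactory receptor genes, and so on the pseudocount. On 1416301_a_at epididymal GFP- replicate 1 lay within that range, and the value ran from -4.71 to -3.79 over the alternatives.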

How the results depend on the processing

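The brightest probe sets of Ebf1, Ebf2 and Ebf3 kept their call in each contrast under all alternatives run, and the sign turned only for the uncalled Ebf3 interaction (-0.20 to 0.37). The epididymal GFP change ran from 3.98 to 4.53 for Ebf1, 3.91 to 5.96 for Ebf2 and 0.33 to 1.00 for Ebf3, and its extremes came with pseudocounts of 64 and 1. Ebf2 1449102_at lost its depot call in GFP+ cells with a pseudocount of 1 (limma adjusted p = 0.293). The inguinal Ebf3 call was also lost with a pseudocount of 1 on 1460666_a_at (limma adjusted p = 0.0965) and 1428349_s_at (0.400), and on the former with no trend (0.0553). The epididymal Ebf3 call was gained on 1428349_s_at with a pseudocount of 1 (limma adjusted p = 0.0159), no trend (0.0195) or without epididymal GFP+ replicate 3 (0.0363) or GFP- replicate 3 (0.0229), and on 1460666_a_at without epididymal GFP+ replicate 1 (0.0310). The causes were not tested. Of the listed genes, 11 of 44 called in inguinal and 8 of 69 called in epididymal cells lost the call in at least 1 alternative, and 9 of 79 and 8 of 54 uncalled genes gained one.

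Same-numbered samples of different groups had correlations of -0.11 to 0.11, and differently numbered samples had correlations of -0.12 to 0.11. With so few arrays in a group, these values cannot decide whether the replicate numbers pair the samples, and the labels do not say. With the replicate block, the inguinal GFP contrast called 925 probe sets higher and 1365 lower, against 960 and 1410, and Ebf3 1460666_a_at (limma adjusted p = 0.0587) and 1428349_s_at (0.0765) lost their inguinal call.

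With median centring the inguinal GFP contrast called 1598 higher and 1044 lower, the depot difference of the GFP contrast 4485 and 2824 against 3238 and 3661, and the depot contrast in GFP+ cells 6667 and 4311 against 5057 and 5591. Leaving out 1 array gave 607 to 1143 called higher in the inguinal GFP contrast, with 607 without inguinal GFP+ replicate 1. With 1 probe set a gene, which tests fewer features, the counts were 904 lower in the inguinal GFP contrast, 2668 higher and 2519 lower in the epididymal one, 2000 and 2313 for their difference, 2922 and 3370 between depots in GFP+ cells, and 3399 and 3257 in GFP- cells.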
